A study of Mus musculus with 6 samples.

Results

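This account describes the stretches of the mouse autosomes where macrophages carried PU.1 without its partner C/EBPβ and where neither macrophages nor adipocytes carried acetylated histone H3 lysine 9 (H3K9Ace). They were chosen from the PU.1 list by position: a PU.1 region belonged to the set when it overlapped, by at least 1 bp, no macrophage C/EBPβ region, no macrophage H3K9Ace region and no adipocyte H3K9Ace region. The set held 18862 of the 45485 autosomal PU.1 regions, 41.5%, and is called here the unacetylated PU.1-alone regions. The lack of overlap with those 3 lists is how the set was made and is no result.

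The study mapped bound factors and histone marks by ChIP-seq, the sequencing of immunoprecipitated chromatin, with 6 libraries and 1 library per group. The macrophages were primary peritoneal cells of male C57BL/6 mice, drawn into the cavity by 3% thioglycollate, collected 3 days after the injection and kept for 24 h in culture to select adherent cells. A run held pooled cells of 4 or more mice, and macrophage libraries were made for PPARγ, PU.1, C/EBPβ and H3K9Ace. For adipocytes, the mouse preadipocyte line 3T3-L1 was differentiated into fat cells, with libraries for PPARγ and H3K9Ace. PU.1 and C/EBPβ were read in macrophages alone. The chromatin came from whole-cell lysates in macrophages and from nuclear lysates in 3T3-L1 cells, so the cell types also differ in preparation. The lists carry positions and no expression, so the identity of the cells could not be checked against marker genes.

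PU.1 is an ETS-family transcription factor of myeloid and B cells that binds many more places than are active in any given cell, and it can occupy closed chromatin ahead of other factors. In macrophages it works with C/EBPβ, a leucine-zipper factor shared with adipocytes, to open enhancers. Such enhancers and active promoters usually carry acetylated histone H3. PPARγ, a nuclear receptor, is best known as the master regulator of adipogenesis and is also made by macrophages. A PU.1 region with neither C/EBPβ nor acetylation is a place where PU.1 was detected without this factor or this mark. Such regions were common here, at 41.5% of the autosomal PU.1 list.

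The autosomal PU.1 regions fell into 8 classes by C/EBPβ and by acetylation in each cell type, and the unacetylated PU.1-alone regions were the most numerous. The classes closest to them by definition were 4869 PU.1-alone regions acetylated in macrophages only, 6401 acetylated in both cell types, 2273 acetylated in adipocytes only, and 4945 unacetylated PU.1 regions with C/EBPβ. These 4 classes serve below for comparison. Few regions sat at the border of the rule. Of the set, 78 regions (0.414%) ended within 10 bp of a region of the 3 lists, 9 of them touching it, and 730 (3.87%) within 100 bp. On the other side of the border, 798 PU.1 regions met a single list by at most 100 bp. The 730 and the 798 had median widths of 214 bp and 222 bp. Macrophage PPARγ lay at 12 of the 730 (1.64%) and at 11 of the 798 (1.38%). Its share was 0.827% over the whole set and 2.83% over all autosomal PU.1 regions.

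The unacetylated PU.1-alone regions mostly lay some kilobases away from acetylated chromatin. The gap, measured from edge to edge, had a median of 8.62 kb to macrophage H3K9Ace (quartiles 2.59 and 25.8 kb) and 18.9 kb to adipocyte H3K9Ace (5.12 and 61.2 kb). The nearest acetylated region of either cell type was 5.94 kb away at the median. It was within 1 kb of 3371 regions (17.9%) and within 10 kb of 11607 (61.5%). A minority was remote, with 913 regions (4.84%) more than 100 kb from any acetylated region. The nearest acetylated region was a macrophage one for 11256 regions and an adipocyte one for 7379. The macrophage list covers 52.3 Mb of the autosomes and the adipocyte list 98.7 Mb. These gaps come from lists that the rule used and are given as a description, with no test.

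Unacetylated PU.1 regions that carried C/EBPβ met the same condition on acetylation, and their gaps can be set beside those of PU.1 alone. The median gap to macrophage acetylation was 8.62 kb for PU.1 alone and 5.58 kb for PU.1 with C/EBPβ. Macrophage H3K9Ace lay within 1 kb of 12.9% of the unacetylated PU.1-alone regions and of 19.2% of those with C/EBPβ. The gap to adipocyte acetylation was nearly the same in both, with medians of 18.9 kb for PU.1 alone and 18.4 kb for PU.1 with C/EBPβ, and shares within 1 kb of 7.75% and 8.17%. The difference between these classes thus lay on the macrophage side of the description. Macrophage acetylation was the nearer mark at 59.7% of the PU.1-alone and 67.6% of the C/EBPβ regions.

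**Figure D1:**
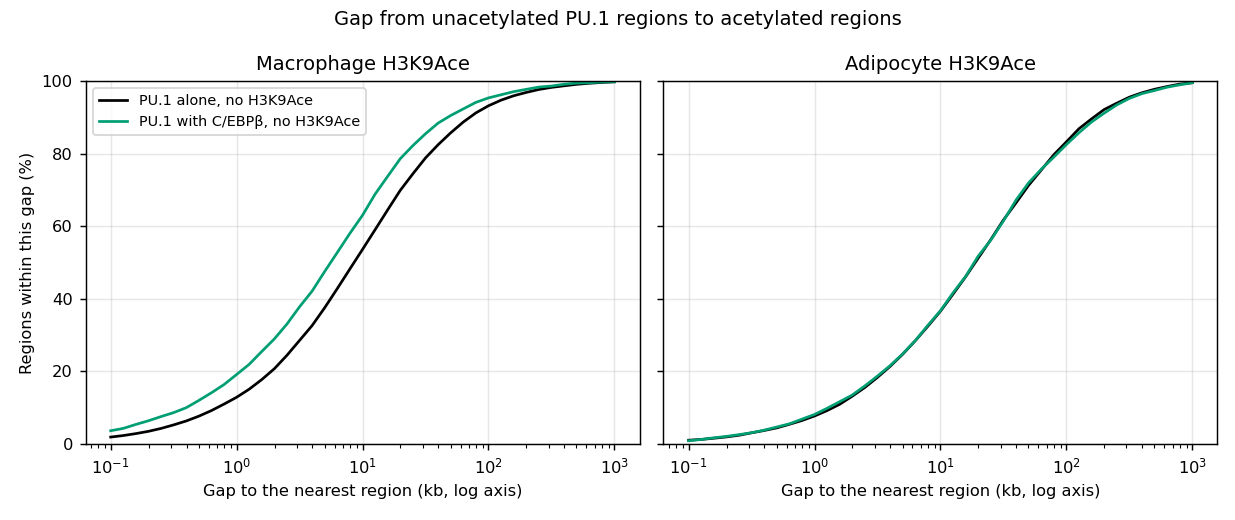
Cumulative share of regions (vertical axis, percent) by the gap in kb to the nearest macrophage (left) or adipocyte (right) H3K9Ace region, on a log axis, for unacetylated PU.1-alone regions (black) and unacetylated PU.1 regions with C/EBPβ (green). The curves part on the left, with medians of 8.62 and 5.58 kb, and run together on the right, with medians of 18.9 and 18.4 kb.

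The regions furthest from acetylation lay in 2 stretches far from any listed acetylated region. In mm8 coordinates, 3 of the 5 most remote were neighbours on chromosome 15, at 19620425 to 19620620, 19723588 to 19723724 and 19800675 to 19800866. Their gaps to macrophage H3K9Ace were 5467, 5364 and 5287 kb. The other two lay side by side on chromosome 16, at 81320037 to 81320520 and 81316799 to 81317030, with gaps of 2860 and 2857 kb. Remoteness from acetylation did not always mean remoteness from C/EBPβ, whose nearest regions were 2.68 kb and 0.186 kb from these chromosome 16 regions. From the chromosome 15 regions the nearest C/EBPβ lay 181, 78.3 and 1.16 kb away. None of the 5 overlapped PPARγ in any list of either cell type. Macrophage PPARγ in the final list met 0.827% of the whole set, so this absence is not particular to them.

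C/EBPβ was the other absent partner, and it too was further from the set than from the PU.1-alone classes with acetylation, which share the condition of not overlapping it. The median gap to the nearest C/EBPβ region was 13.3 kb for the unacetylated PU.1-alone regions. It was 4.34 kb for those acetylated in macrophages only, 5.14 kb for those acetylated in both cell types and 9.08 kb for those acetylated in adipocytes only. Within 1 kb of a C/EBPβ region lay 8.23% of the unacetylated set, against 26.0%, 25.1% and 10.7% of the same 3 classes. These values are a description, since the rule used the C/EBPβ list.

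The unacetylated PU.1-alone regions were narrow. Their median width was 210 bp, with quartiles of 185 and 262 bp and a range of 119 to 1048 bp. The median was 249 bp for PU.1-alone regions acetylated in macrophages only and 242 bp for those acetylated in both cell types. PU.1-alone regions acetylated in adipocytes only, at 214 bp, were close to the unacetylated set. Unacetylated PU.1 regions with C/EBPβ were wider, at 279 bp. Regions under 200 bp made up 40.1% of the set, 37.6% of the adipocyte-only class and 27.2% of all autosomal PU.1 regions. Regions over 400 bp made up 3.72% of the set and 11.6% of all autosomal PU.1 regions. A wider region has more room to meet another list, so width is tied to the rule and was not tested. The PU.1 list has no height or score, so the strength of these regions is unknown, and whether width stands for strength was not tested.

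The 3 widest regions of the set were exceptions to that pattern. They lay on chromosome 10 at 5744357 to 5745405 (1048 bp), chromosome 6 at 136413155 to 136414171 (1016 bp) and chromosome 19 at 6668325 to 6669136 (811 bp). Their gaps to macrophage H3K9Ace were 0.795, 12.9 and 0.564 kb. All 3 lacked PPARγ in every list used here, as did most regions of the set.

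The set was more isolated from other PU.1 binding than any of the 4 classes it was compared with. The median distance between the centre of an unacetylated PU.1-alone region and that of the nearest other PU.1 region was 6.20 kb (quartiles 2.12 and 17.8 kb). It was 1.87 kb for PU.1-alone regions acetylated in macrophages only, 1.91 kb for those acetylated in both, 4.39 kb for those acetylated in adipocytes only and 3.68 kb for unacetylated PU.1 regions with C/EBPβ. A neighbour within 1 kb was seen for 13.1% of the set, against 36.1% of the macrophage-only acetylated class. At the other end, 660 regions of the set (3.50%) had no other PU.1 centre within 100 kb, against 36 (0.739%) of that class.

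Isolation was tested as the share of regions with another PU.1 centre within 10 kb, a measure the rule did not use. It held for 11710 of 18862 unacetylated PU.1-alone regions, 62.1% (95% Wilson interval 61.4 to 62.8), where the share over all autosomal PU.1 regions was 73.2%. Against the 84.4% of PU.1-alone regions acetylated in macrophages only, the odds ratio was 0.303 (95% interval 0.278 to 0.329, adjusted p = 3.6e-209, 2-sided Fisher's exact test). Against the 79.3% of those acetylated in both cell types it was 0.429 (interval 0.400 to 0.459, adjusted p = 9.99e-147, Fisher's exact test). The set was thus less often near other PU.1 regions than either class acetylated in macrophages. The odds ratio was 0.680 (interval 0.617 to 0.748, adjusted p = 8.75e-16, Fisher's exact test) against the 70.7% of PU.1-alone regions acetylated in adipocytes only. Against the 75.6% of unacetylated PU.1 regions with C/EBPβ it was 0.528 (interval 0.491 to 0.567, adjusted p = 7.07e-73, Fisher's exact test). Each of these differences had the same direction on 19 of 19 autosomes. These tests, and those on PPARγ below, are adjusted over 12 comparisons and count regions as independent. For the neighbour measure regions are not independent, since centres within 10 kb of each other count for both regions. Of the 11710 regions with such a neighbour, 6046 had another region of the set as the nearest one. The p-values and intervals above do not take this in. With 1 library per group the tests compare lists of regions and not replicated cell populations.

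**Figure D2:**
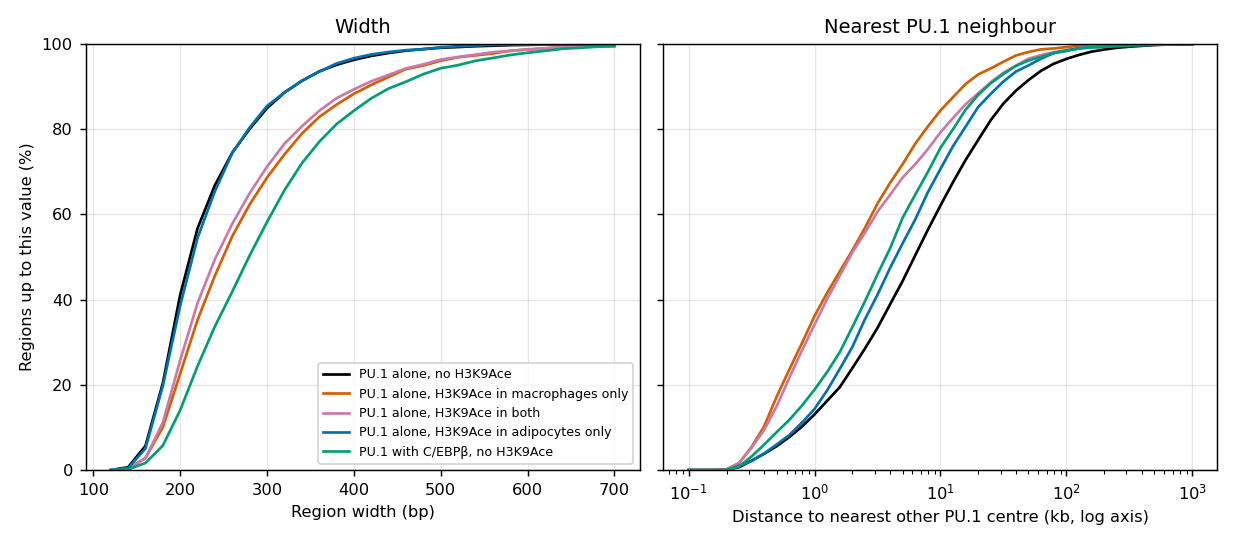
Cumulative share of regions (percent) by width in bp (left) and by distance in kb between centres to the nearest other PU.1 region on a log axis (right), for the unacetylated PU.1-alone regions (black) and the 4 classes compared. In width the set runs with PU.1-alone regions acetylated in adipocytes only (medians 210 and 214 bp), and in neighbour distance it lies to the right of all 4 classes, with a median of 6.20 kb.

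Where the set had a PU.1 neighbour, that neighbour was often of the same kind. The nearest PU.1 region was itself unacetylated and alone for 9993 of 18862 regions, 53.0%, while this class is 41.5% of all autosomal PU.1 regions. The nearest neighbour was an unacetylated region with C/EBPβ for 13.9% of the set, and that class is 10.9% of the list. PU.1-alone regions acetylated in both cell types were the nearest neighbour in 8.32% of cases and are 14.1% of the list. Neighbours share a stretch of chromatin with or without acetylation, and these shares are given without a test.

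Read along the chromosomes, the set formed 8906 runs of consecutive PU.1 regions without a member of another class between them. Single regions, flanked on both sides by other classes or by the end of the list, made up 4404 of the 18862 (23.3%). Runs of 5 or more held 4621 regions (24.5%), and 49 runs of 10 or more held 563 (2.98%). The longest run had 20 regions over 0.546 Mb on chromosome 3, from 96746099 to 97292199. The next had 17 regions over 1.37 Mb on chromosome 18 (78073763 to 79446413) and 15 regions over 2.64 Mb on chromosome 12 (113935578 to 116577611). No region of these 3 runs overlapped the final macrophage PPARγ list, and a single one, in the chromosome 3 run, overlapped the longer list. Over the whole set the shares were 0.827% and 4.42%, so few overlaps are no trait of these runs.

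The 5 most isolated regions had no other PU.1 region for more than 1000 kb, and they differed in how close acetylation came. On chromosome 2 the region at 97305863 to 97306044 lay 3068 kb from the nearest other PU.1 centre, 3066 kb from macrophage H3K9Ace and 37.4 kb from adipocyte H3K9Ace. On chromosome 12 the region at 62912394 to 62912610 lay 2777 kb from other PU.1 and 1704 kb from macrophage H3K9Ace. The region on chromosome 1 at 103729716 to 103730013 was 1820 kb from other PU.1 and 381 kb from macrophage H3K9Ace. An isolated PU.1 region was not always remote from acetylation. That on chromosome 4 at 84333285 to 84333434 was 1508 kb from other PU.1 but 8.38 kb from macrophage H3K9Ace, where the median of the set was 8.62 kb. The fifth, on chromosome 2 at 88918217 to 88918401, was 1358 kb from other PU.1 and 1357 kb from acetylation of either cell type. None of the 5 overlapped PPARγ, which was rare in the whole set.

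Macrophage PPARγ was rare at the unacetylated PU.1-alone regions. It overlapped 156 of 18862, 0.827% (0.707 to 0.967), where the share over all autosomal PU.1 regions was 2.83%. PPARγ lay at 97 of 4869 PU.1-alone regions acetylated in macrophages only, 1.99% (1.64 to 2.42), so that the odds ratio of the unacetylated set over this class was 0.410 (interval 0.316 to 0.535, adjusted p = 9.21e-11, Fisher's exact test, lower on 17 of 19 autosomes). The share in unacetylated regions with C/EBPβ was higher still, 208 of 4945 or 4.21% (3.68 to 4.80). Over that class the odds ratio of the set was 0.190 (interval 0.153 to 0.235, adjusted p = 2.64e-52, Fisher's exact test, lower on 19 of 19 autosomes). PPARγ was thus rarer at PU.1 alone than at PU.1 with C/EBPβ even where neither class was acetylated. Within quartiles of PU.1 width the ratio over the macrophage-only acetylated class was 0.588 (0.453 to 0.763). Over unacetylated regions with C/EBPβ it was 0.316 (0.253 to 0.394). These ratios were nearer to 1, and the set remained lower.

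Against the PU.1-alone classes acetylated in adipocytes, the difference in macrophage PPARγ was smaller or was not detected. The share was 0.827% in the set and 1.42% (1.16 to 1.74) in regions acetylated in both cell types, an odds ratio of 0.578 (interval 0.443 to 0.759, adjusted p = 8.62e-05, Fisher's exact test, lower on 14 of 19 autosomes). This call was lost within quartiles of PU.1 width, where the ratio was 0.782 with an interval of 0.600 to 1.02, which includes 1. PU.1-alone regions acetylated in adipocytes only carried macrophage PPARγ in 21 of 2273 cases, 0.924% (0.605 to 1.41). The odds ratio of the set over them was 0.894 with an interval of 0.564 to 1.49 (adjusted p = 0.682, Fisher's exact test). By autosome the set was lower on 7 and higher on 12. With the longer macrophage list, which reaches down to a fold of 2.15 over control where the final list starts at 5, the ratio was 0.762 (interval 0.629 to 0.929, adjusted p = 0.00713, Fisher's exact test).

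**Figure D3:**
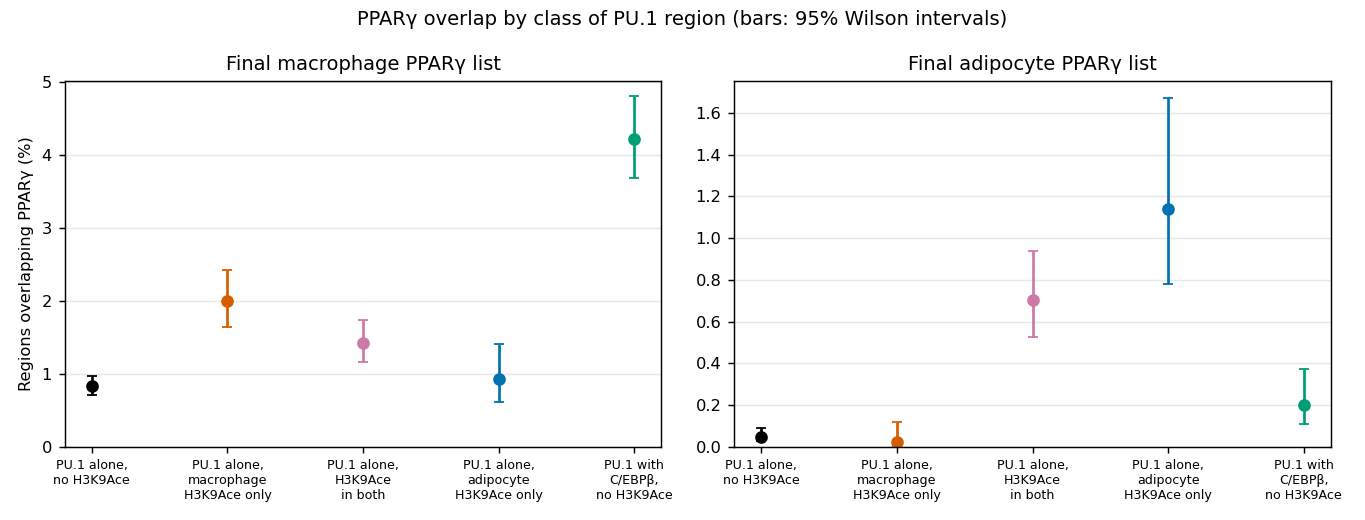
Share of regions (percent, points with 95% Wilson intervals) overlapping the final macrophage (left) and adipocyte (right) PPARγ list, for the unacetylated PU.1-alone regions and the 4 classes compared, on separate linear axes from 0. The unacetylated PU.1-alone regions are at 0.827% on the left and 0.0477% on the right, and the highest points are 4.21% for PU.1 with C/EBPβ on the left and 1.14% for adipocyte-only acetylated regions on the right.

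In the longer macrophage PPARγ list, 833 regions of the set had an overlap, 4.42% (4.13 to 4.72), where the share over all autosomal PU.1 regions was 12.4%. The corresponding shares were 11.6% for PU.1-alone regions acetylated in macrophages only and 18.7% for unacetylated regions with C/EBPβ. The order of the classes was thus the one seen with the final list.

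Within the set, the share with PPARγ was higher at wider regions, at regions nearer to acetylation and at regions with a close PU.1 neighbour. From the narrowest regions, up to 200 bp, to the widest, over 400 bp, the share with macrophage PPARγ was 0.310%, 0.691%, 0.992%, 2.10% and 3.13% over 5 bins. By the gap to the nearest acetylated region it was 1.28% within 1 kb, 0.961% from 1 to 5 kb, 0.820% from 5 to 10 kb, 0.715% from 10 to 20 kb, 0.491% from 20 to 50 kb, 0.364% from 50 to 100 kb and 0.219% beyond. The last of these bins holds 2 PPARγ-bound regions of 913, so its interval is 0.0601 to 0.795%. By distance to the nearest other PU.1 centre the share was 1.22% within 1 kb and 1.24% from 1 to 5 kb, then 0.806% from 5 to 10 kb, 0.412% from 10 to 20 kb, 0.378% from 20 to 50 kb and 0.107% from 50 to 100 kb. Beyond 100 kb it was 0.455%, 3 of 660 regions, above the 1 of 937 in the bin before it, and the intervals of these bins overlap (0.155 to 1.33% and 0.0188 to 0.602%).

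These shares are given as a description, since the bins were read on the same regions and the gap comes from lists the rule used. A wider region also has more room to meet a PPARγ region. Tests of the 3 splits below were added after seeing the data, and their p-values are not used here. Split at the median width, PPARγ lay at 123 of 9534 regions of at least 210 bp (1.29%) and at 33 of 9328 narrower ones (0.354%). With another PU.1 centre within 10 kb it lay at 130 of 11710 regions (1.11%), and without at 26 of 7152 (0.364%). With acetylation within 10 kb it lay at 118 of 11607 regions (1.02%), and without at 38 of 7255 (0.524%). The 3 measures moved together: median width was 217 bp within 1 kb of acetylation and 199 bp beyond 100 kb, and the median distance to the nearest other PU.1 centre was 2.51 kb and 45.1 kb in the same bins.

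**Figure D4:**
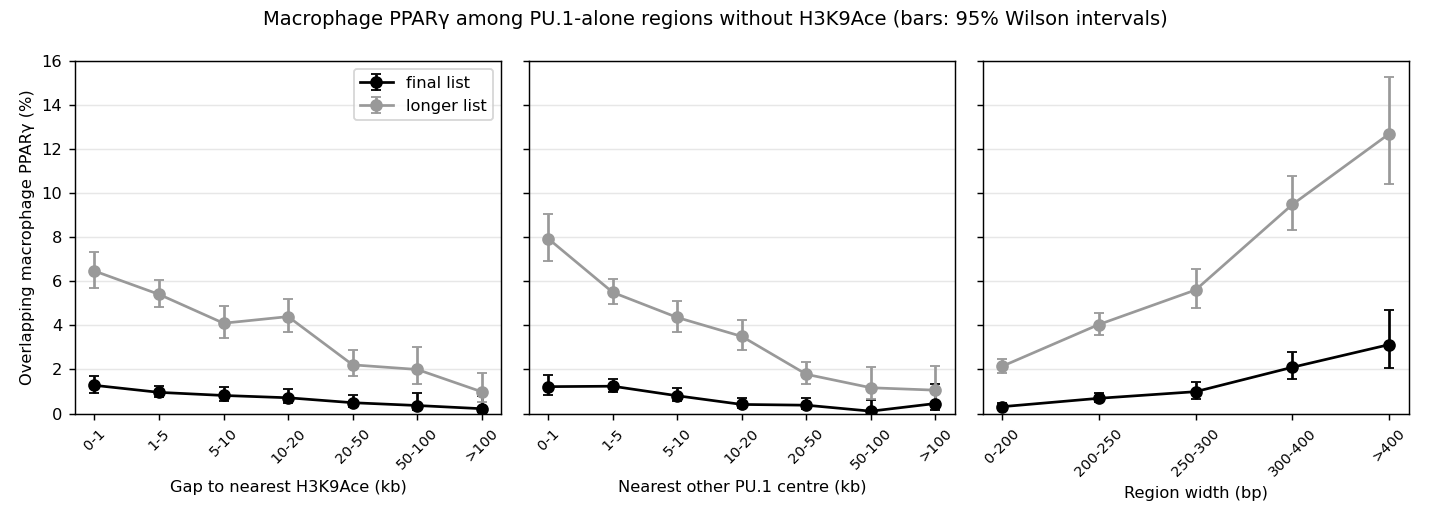
Share of unacetylated PU.1-alone regions (percent, points with 95% Wilson intervals) overlapping the final (black) or longer (grey) macrophage PPARγ list, by gap to the nearest H3K9Ace region of either cell type in kb (left), distance to the nearest other PU.1 centre in kb (middle) and width in bp (right). In the final list the share is 1.28% within 1 kb of acetylation and 0.219% beyond 100 kb, and 0.310% at regions up to 200 bp and 3.13% over 400 bp.

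The set accounted for 154 of the 1924 autosomal macrophage PPARγ regions, and 144 of the 154 themselves overlapped none of the 3 lists of the rule. The other 10 reached past the PU.1 region into C/EBPβ (6), macrophage H3K9Ace (3) or adipocyte H3K9Ace (1). At the 156 PU.1 regions the centres of PU.1 and PPARγ lay a median of 45 bp apart. The authors' fold at the 154 PPARγ regions had a median of 6.125, with quartiles of 5.46 and 7.315. The median was 6.41 at the 1087 PPARγ regions on other PU.1 regions and 5.98 at the 683 without PU.1. Their fold therefore lay within the range of the rest of the list, from 5 to 16.4 in the set and up to 22.5 at other PU.1 regions.

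The 8 regions of the set with the highest macrophage PPARγ fold show how varied their surroundings were. The highest, on chromosome 6 at 65523784 to 65524056, had a fold of 16.4 and a macrophage acetylated region 1.28 kb away, with the nearest adipocyte one at 184 kb. The next, on chromosome 2 at 68786175 to 68786645, had a fold of 16.25 and lay 12.8 kb from macrophage H3K9Ace and 1.41 kb from C/EBPβ. Acetylation lay 13.3 kb away in both cell types from the region on chromosome 12 at 17701979 to 17702211 (fold 13.05). Close macrophage acetylation was found again at the regions on chromosome 16 at 45570879 to 45571156 (fold 12.3, gap 1.49 kb) and chromosome 17 at 71001462 to 71001672 (fold 11.6, gap 1.36 kb). The regions on chromosome 17 at 74359721 to 74359955 (fold 10.9) and chromosome 15 at 98334298 to 98334592 (fold 10.85) had gaps of 3.15 and 3.66 kb. The eighth, on chromosome 14 at 77213612 to 77213880 (fold 10.6), was further away, 56.1 kb from macrophage and 54.9 kb from adipocyte acetylation and 198 kb from C/EBPβ, with another PU.1 centre at 14.9 kb. It and the chromosome 15 region overlapped the combined adipocyte PPARγ list.

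Adipocyte PPARγ met the set in only 9 of 18862 cases, 0.0477% (0.0251 to 0.0907), where the share over all autosomal PU.1 regions was 0.556%. PU.1-alone regions acetylated in adipocytes only carried it in 26 of 2273 cases (1.14%, 0.782 to 1.67), and those acetylated in both cell types in 45 of 6401 (0.703%, 0.526 to 0.939). Over these classes the odds ratios of the set were 0.0413 (interval 0.0170 to 0.0910, adjusted p = 3.11e-18, Fisher's exact test) and 0.0674 (interval 0.0290 to 0.140, adjusted p = 1.32e-18, Fisher's exact test). The set was lower on 14 and 16 of 19 autosomes and higher on none. Over the other overlap rules and PPARγ lists the ratios ranged from 0.0267 to 0.0643 and from 0.0401 to 0.0750. Adipocyte PPARγ was thus rarer at PU.1-alone regions without acetylation than at those acetylated in adipocytes.

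Among PU.1 regions without adipocyte acetylation the adipocyte receptor was rare throughout. It lay at 9 regions of the set and at 1 of 4869 PU.1-alone regions acetylated in macrophages only (0.0205%), an odds ratio of 2.32 whose interval, 0.322 to 102, is wide (adjusted p = 0.698, Fisher's exact test). Unacetylated regions with C/EBPβ had it in 10 of 4945 cases, 0.202% (0.110 to 0.372), and the odds ratio of the set over them was 0.236 (interval 0.0847 to 0.646, adjusted p = 0.00255, Fisher's exact test, lower on 7 and higher on 5 autosomes). That call rests on few regions. It was lost when C/EBPβ and acetylated regions were extended by 1 kb (4 against 5 regions, odds ratio 0.259, adjusted p = 0.0538, Fisher's exact test). It was lost as well with PPARγ regions of a fold of at least 7 (2 against 3 regions, odds ratio 0.175, adjusted p = 0.0768, Fisher's exact test). In the combined adipocyte list, which holds wider regions from 3 datasets, 122 regions of the set had an overlap (0.647%, 0.542 to 0.772), where the share over all autosomal PU.1 regions was 3.93%.

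The 9 regions with adipocyte PPARγ can be given in full, and 5 of them lay within 1 kb of an acetylated region. Over the whole set that share was 17.9%, and the difference was not tested. The highest fold, 8.86, was found on chromosome 8 at 71021762 to 71021953, which lay 17.7 kb from adipocyte and 65.3 kb from macrophage acetylation. Of all 45485 autosomal PU.1 regions, 107 were bound by PPARγ in both cell types, and 2 of these were in the set. The chromosome 8 region was 1 of the 2, with a macrophage fold of 6.54. The other, on chromosome 5 at 30502831 to 30503065, had folds of 5.75 in macrophages and 6.85 in adipocytes, and its gaps were 0.135 kb to macrophage and 0.731 kb to adipocyte H3K9Ace. Both were far from other PU.1 regions, at 24.8 and 26.3 kb. The pair differed in acetylation nearby.

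The other adipocyte-bound regions had folds of 5.07 to 7.39, and the median over all 9 was 6.35. The median fold of the adipocyte list was 6.35 at other PU.1 regions and 6.39 without PU.1. On chromosome 6 they were at 29214465 to 29214740 (fold 7.39, 5.81 kb from adipocyte H3K9Ace) and 88601647 to 88601860 (fold 5.93, 2.29 kb). Chromosome 1 held that at 122074819 to 122075097 (fold 6.79, 1.30 kb from adipocyte and 0.353 kb from macrophage H3K9Ace), and chromosome 17 that at 32238977 to 32239132 (fold 6.35, 2.07 kb from adipocyte H3K9Ace). The region on chromosome 10 at 57801204 to 57801545 (fold 5.58) was 0.104 kb from macrophage acetylation. Those on chromosome 8 at 114484095 to 114484359 (fold 5.57) and chromosome 14 at 32139846 to 32140010 (fold 5.07) were 0.045 and 0.096 kb from adipocyte acetylation. Close acetylation thus belonged to either cell type. Each of the 9 also lay in the combined adipocyte list.

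The share of PU.1 regions in the set varied over the chromosomes. It was highest on chromosome 18, 686 of 1367 or 50.2% (47.5 to 52.8), and on chromosome 13, 48.1% (46.1 to 50.2). It was lowest on chromosomes 8 and 19, each 35.1% (33.1 to 37.2 and 32.7 to 37.5). The part of the chromosome covered by acetylated regions of either cell type was 3.23% on chromosome 18 and 3.33% on chromosome 13, but 5.76% on chromosome 8 and 9.23% on chromosome 19. The 2 orders did not match throughout. Chromosome 14 also had a cover of 3.23% but a share of 43.9%, and chromosome 3, with the lowest cover (2.96%), had a share of 44.5%. Since acetylation set the membership, these shares are a description. The median width of the set stayed between 206 and 215 bp on every autosome. Its macrophage PPARγ share ran from 0.353% on chromosome 3 to 1.28% on chromosome 1, with 2 to 20 bound regions per autosome.

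**Figure D5:**
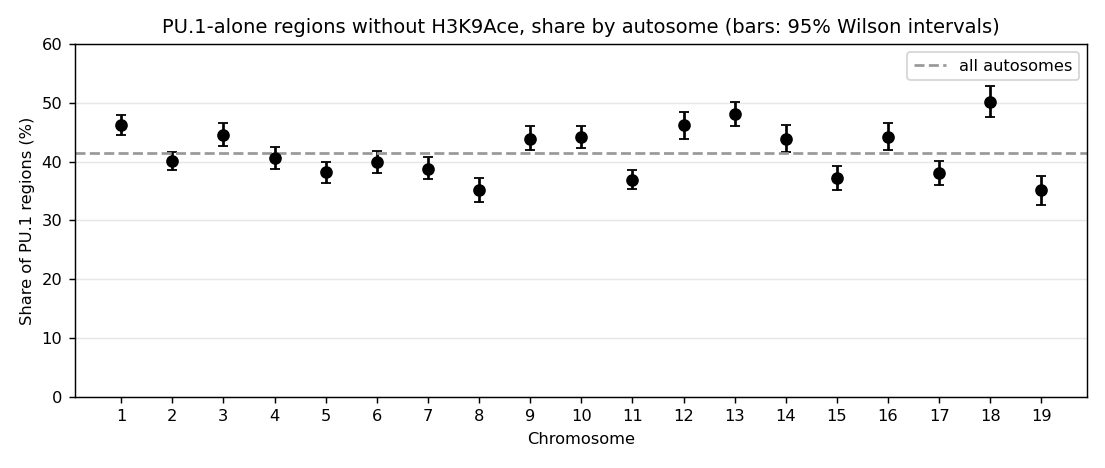
Share of autosomal PU.1 regions that are unacetylated and without C/EBPβ (percent, points with 95% Wilson intervals), by chromosome, with the share over all autosomes, 41.5%, as a dashed line. Chromosome 18 is highest at 50.2%, and chromosomes 8 and 19 are lowest at 35.1%.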

How the data were processed

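Per the labels' protocols, the authors mapped reads of 36 bp with ELAND to mm8 and kept unique best matches with at most 2 mismatches. The macrophage PPARγ data joined 2 runs, and the other libraries had 1 run each. For the peak caller's settings, the control and the ELAND version, the answer is not given in the sources used here. Depth is unknown. Per the file headers, the deposited PPARγ lists give a fold over an unnamed control (a ratio), a height (a signal, in whole numbers) and a false discovery rate, read as a percent. The other lists give positions alone. Groups follow the titles, although the description field names PPARγ for all 6 libraries. Coordinates are printed as deposited. The reference tables at hand are of another build, so genes and sequences were not used here. No autosomal PU.1 region overlapped a masked interval.

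Regions were compared in Python 3.11.15 with numpy 2.4.6, pandas 2.3.3 and scipy 1.17.1. Rows that repeated a position or lay off the autosomes, X and Y were dropped. These were 20 rows of the adipocyte H3K9Ace list and 1 of the combined adipocyte PPARγ list. Intervals of shares are 95% Wilson intervals and take in counting error alone. Odds ratios between classes are sample ratios with exact conditional intervals. Their p-values come from the 2-sided exact test of Fisher, adjusted by Benjamini-Hochberg over 12 comparisons at a threshold of 0.05. Mantel-Haenszel tests used statsmodels 0.14.6. The functions were tested on simulated intervals and counts. Regions named are those with the highest PPARγ fold (8 per cell type), bound in both cell types, furthest from other PU.1 (5) or from acetylation (5), widest (3) or in the longest runs (3). The ninth region with adipocyte PPARγ was added after its values were seen. The members and comparisons were chosen with earlier results of these data known. Alternatives changed the overlap rule, the gap, the chromosomes, the width, the neighbour distance and the PPARγ lists.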

Additional observations from a re-analysis of the deposited data

Results flagged for a closer look

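The contrast between unacetylated PU.1-alone regions and those acetylated in adipocytes, with or without macrophage acetylation, differed between macrophage and adipocyte PPARγ. This was a test of the difference itself on regions bound in a single cell type. It was chosen after seeing the data and adjusted over 4 comparisons. The set held 154 regions bound in macrophages alone and 7 bound in adipocytes alone, against 21 and 26 among PU.1-alone regions acetylated in adipocytes only. The odds ratio was 27.2 (95% interval 9.76 to 81.8, adjusted p = 1.03e-13, Fisher's exact test). Against PU.1-alone regions acetylated in both cell types, with 77 and 31 such regions, it was 8.86 (3.59 to 24.7, adjusted p = 7.69e-08, Fisher's exact test). Against regions acetylated in macrophages only (97 and 1) it was 0.227 (0.00498 to 1.82, adjusted p = 0.354, Fisher's exact test), and against unacetylated regions with C/EBPβ (205 and 7) it was 0.751 (0.220 to 2.57, adjusted p = 0.597, Fisher's exact test).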

How the results depend on the processing

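Of 108 values from other settings for the 12 class comparisons, 101 kept their direction and their side of the threshold. Macrophage PPARγ against PU.1-alone regions acetylated in both cell types lost its call within width quartiles (odds ratio 0.782), and against the adipocyte-only acetylated class it gained one with the longer list (0.762). Adipocyte PPARγ against unacetylated regions with C/EBPβ lost its call with 1 kb extensions (0.259) and at a fold of at least 7 (0.175), where fewer regions are counted. Against the macrophage-only acetylated class, where no call was made, adipocyte PPARγ changed direction with 1 kb extensions (0.639), the longer list (0.926) and a fold of at least 7 (0.516). Leaving out each autosome in turn, 225 of 227 values kept direction and side. Macrophage PPARγ against the adipocyte-only acetylated class, never called there, ranged from 0.808 to 1.05, above 1 without chromosome 2 (1.01) and without chromosome 15 (1.05). Leaving out the chromosome with the only adipocyte-bound region of the macrophage-only acetylated class gave no value.

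The set numbered 11913 without PU.1 regions under the lower quartile of width, and 14553 to 20002 in the other settings. Its median width was 212 bp with the PU.1 centre inside the other region or with 1 region per chain of PU.1 regions, and 244 bp without the narrowest regions. The median distance to other PU.1 ranged from 5.90 to 7.89 kb over these settings. The median gap to acetylation was 5.35 kb with overlaps of at least 50%, 5.32 kb by centres, 9.14 kb with extensions, 6.32 kb with 1 region per chain and 5.39 kb without the narrowest regions. The extensions leave out regions within 1 kb of acetylation, while the 50% and centre rules admit regions that overlap it. The direction of the change in gap under those rules was therefore fixed in advance. No paired analysis was possible because each group holds 1 library. Unknown depth limits every absence, since a weak C/EBPβ or acetylated region below the authors' threshold is not in these lists.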

Other observations

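Some unacetylated PU.1-alone regions lay in a short break between acetylated regions. Macrophage H3K9Ace was present within 2 kb on both sides of 420 of the 18862 regions, 2.23% (95% Wilson interval 2.03 to 2.45), and on 1 side alone of 18.6%. Unacetylated PU.1 regions with C/EBPβ had it on both sides in 180 of 4945 cases, 3.64% (3.15 to 4.2). With adipocyte H3K9Ace the shares were 2.41% (2.20 to 2.64) for PU.1 alone and 2.26% (1.89 to 2.72) for PU.1 with C/EBPβ. Macrophage PPARγ lay at 6 of the 420 regions with macrophage H3K9Ace on both sides, 1.43%, and at 0.813% of the rest of the set. It lay at 4 of the 454 regions with adipocyte H3K9Ace on both sides, 0.881%, and at 0.826% of the rest. Over all autosomal PU.1 regions the share was 2.83%. These differences were not tested.

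PPARγ also came close without overlap. A macrophage PPARγ region lay within 1 kb of 135 further regions of the set (0.716%) and an adipocyte one within 1 kb of 31 (0.164%). Such shares were not computed for the other PU.1 regions, so these counts do not show whether the set is high or low for PU.1. Of the 18862 regions of the set, 28 overlapped both longer PPARγ lists, against 682 of all 45485 autosomal PU.1 regions.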
